A study of Saccharomyces cerevisiae with 23 samples.

Results

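Line 19-42 is 1 of 23 mutation accumulation lines of Saccharomyces cerevisiae, and its single column of log ratios was set against the mean and the spread of the 22 other line columns over all 6334 array features. The line was chosen by these same log ratios, and it has 1 column, so every difference given here is a description without a replicate of the line and without a test. Mutation accumulation lines are propagated separately, so that spontaneous mutations collect in each. The groups were line 19-42 (1 column) and the other lines, numbered between 19-1 and 19-50 with gaps (22 columns). All were unsynchronized log-phase cultures in YPD, a rich glucose medium, at 30 °C and 225 rpm, harvested at an OD600 near 1.0. Every culture was compared with the same strain, YPS183, grown in YPD to an OD600 of 1.1. The labels give no genotype, ploidy, mating type or mutation for any line, no column holds their ancestor, and although the design speaks of 2 biological replicates of a strain, it does not say whether a column is their average.

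The labels place each line in the Alexa Fluor 555 channel and YPS183 in the 647 channel, with no dye swap, but neither the numerator nor the base of the logarithm is given in the sources used here. Values were read as log2 and signs were kept as deposited, so a positive difference means only that line 19-42 lay further to the positive side of the deposited scale than the mean of the other lines. Across the 6334 features, the column of line 19-42 correlated at r = -0.43 with that of line 19-4 and at -0.42 with that of line 19-40, and at 0.51 with that of line 19-7, which was the highest. All columns share the YPS183 channel. Because 2 of these correlations fell below -0.3, results were also computed with the signs of lines 19-4 and 19-40 turned. These 2 lines were picked for their negative correlation, so turning them makes them more like line 19-42. Fewer departures and less extreme ranks under that setting may follow from this choice. The column of line 19-42 ran from -1.74 to 1.48 and had an SD of 0.343, the fourteenth largest of the 23 columns, whose SDs ran from 0.245 to 0.583.

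Yeast cells take up amino acids, vitamins, nucleobases, peptides and sugars through permeases of the plasma membrane, expel drugs and weak acids through ABC transporters and multidrug facilitators, and drive part of this traffic with proton and cation pumps. Most of these proteins cross the membrane many times and reach it through the secretory pathway, where small GTPases of the Arf, Sar and Rab types direct vesicles. The proteasome, a barrel-shaped protease with a regulatory cap, degrades ubiquitin-tagged proteins and is made from many subunits whose genes are largely controlled together by the transcription factor Rpn4.

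In line 19-42, genes of membrane transporters and pumps lay to the positive side of the other lines, and genes of proteasome subunits lay to the negative side. A feature was counted as departing when its value in line 19-42 differed from the mean of the other lines by 1 or more and lay outside the range of all 22. By this rule 34 of the 6334 features (0.537%) departed to the positive side and 20 (0.316%) to the negative side. All 54 were paired with a current gene. Counted in the same way, the line with the fewest departures was 19-49, with 2, and the line with the most was 19-10, with 346. Line 19-42 was ninth of the 23. Just inside the threshold stood TMN2 at 1.00 and SUI3 at -1.01, and just outside it MSC2 at 0.994 and CLB5 at -0.996. The numbers changed with the scaling and with the signs. Quantile normalization gave 50 positive and 49 negative departures, and turning the signs of lines 19-4 and 19-40 gave 19 positive and 7 negative ones. Picking these 2 lines for their negative correlation with line 19-42 favours fewer departures once they are turned.

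**Figure D1:**
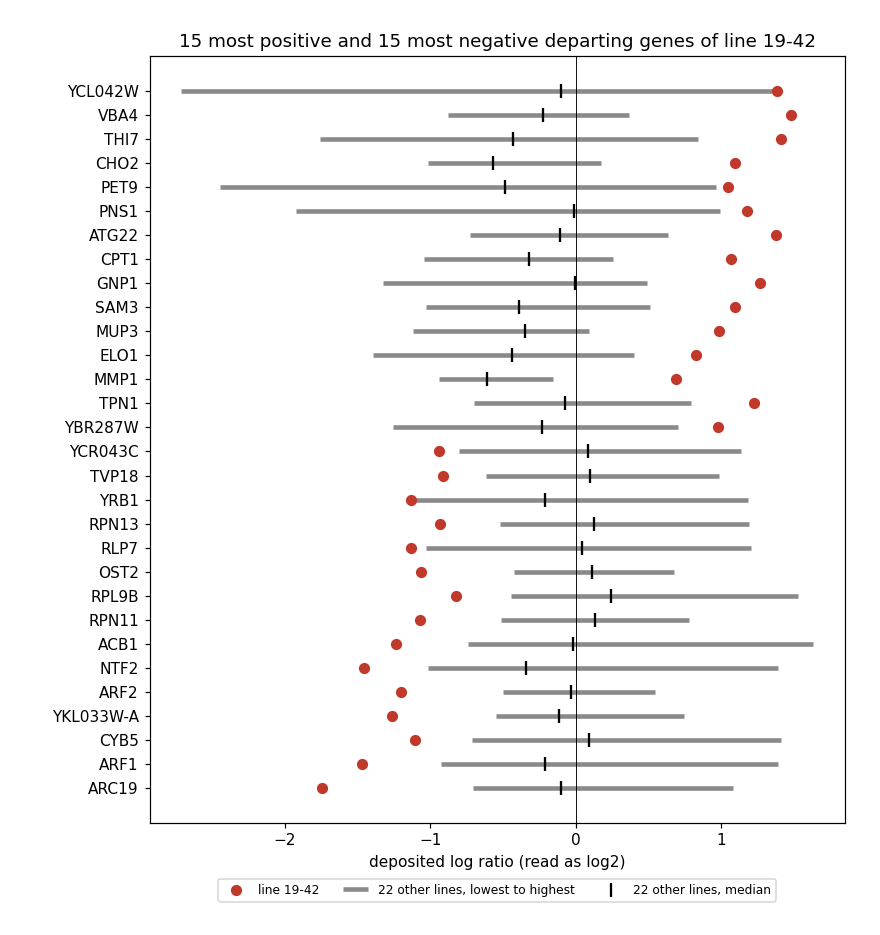
Deposited log ratios (horizontal axis, read as log2) of the 15 most positive and 15 most negative departing genes. Red points are line 19-42, grey bars run from the lowest to the highest of the 22 other lines and black ticks mark their median. Every red point lies beyond the end of its grey bar, by little for YCL042W and YRB1 and by a wide gap for VBA4, MMP1 and ARC19.

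Of the 34 positive departures, 13 were genes of transporter families. These families, described below, held 134 of the 6334 features. They were put together after these departures had been seen, so the count is no independent tally. VBA4, a gene of the vacuolar basic amino acid transporter family, stood at 1.48 in line 19-42, against -0.88 to 0.37 (median -0.23) in the other lines. This difference of 1.75 was 6.34 SDs of the other lines. MMP1, the S-methylmethionine permease gene, was positive in line 19-42, at 0.69, and negative in all 22 other lines, which ran from -0.94 to -0.16 (median -0.61). It was the sole departing gene whose sign in line 19-42 opposed that of every other line, and its difference was 1.29. THI7, which encodes the thiamine transporter of the plasma membrane, had a value of 1.41 in line 19-42, and the other lines ran from -1.76 to 0.84 (median -0.43). For THI7 the difference was 1.74. The glutamine permease gene GNP1 stood at 1.27 in line 19-42, against -1.33 to 0.49 (median -0.01) in the other lines. ATG22, which encodes an exporter of amino acids from the vacuole, stood at 1.38 in line 19-42, against -0.73 to 0.63 (median -0.11). Neither gene's value in line 19-42 was reached in another line.

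The largest positive difference, 1.81, belonged to YCL042W, a reading frame that overlaps the glucokinase gene GLK1. Its value in line 19-42 was 1.38, barely above the highest of the other lines (1.35), which spread down to -2.71. GLK1 itself stood at 0.16 in line 19-42 and within the range of the other lines (-2.52 to 1.27), with a difference of 0.55. Which strand the oligo reads was not used here. The difference of YCL042W came to 1.71 SDs of the other lines, against 6.34 for VBA4.

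To see whether the departing transporter genes stood for their families, 8 whole families were pooled after these values had been seen: amino acid permeases, vacuolar amino acid transporters, vitamin and nucleobase transporters, peptide and urea transporters, hexose transporters and sensors, ABC transporters, multidrug facilitators and P-type ATPases. The hexose genes came from a list written before values were seen, without its regulators, and the other families were written afterwards. Mitochondrial carriers were not pooled. They held 134 measured genes. The median difference of the 134 in line 19-42 was 0.54, against 0.00165 over all features. In the other lines the same median ran from -0.29 in line 19-4 to 0.21 in line 19-49, so line 19-42 stood outside them. Of the 134 genes, 118 were above 0, and 50.3% of all features were. A difference of 0.5 or more was reached by 76 (6.71% of all features), -0.5 or less by 0 (7.37% of all features), and 50 lay above every other line (6.09% of all features). The pool was assembled on these values, so the counts describe it and support nothing further.

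**Figure D2:**
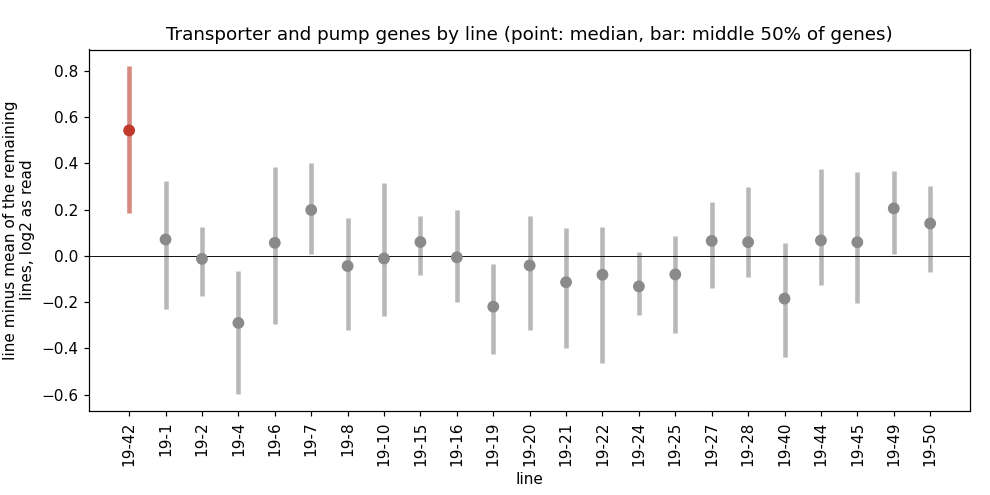
Median (points) and middle 50% (bars) over the 134 transporter and pump genes of each line's value minus the mean of the remaining lines (vertical axis, log2 as read), with line 19-42 in red at the left and the 22 other lines in grey. The median of line 19-42 is 0.54, and the next highest, that of line 19-49, is 0.21.

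Among the amino acid permease genes, all 24 measured members lay above 0 in line 19-42 (50.3% of all features), with a median of 0.80, and 13 lay above every other line (6.09% of all features). Lines other than 19-42 had family medians between -0.32 and 0.32. Genes for the uptake of sulfur compounds stood near the top. SAM3, the S-adenosylmethionine permease gene, stood at 1.10 in line 19-42, against -1.03 to 0.51 (median -0.39) in the other lines. MUP3, a low-affinity methionine permease gene, stood at 0.98, against -1.12 to 0.09 (median -0.35), and the high-affinity permease gene MUP1 at 0.35, against -1.29 to 0.10 (median -0.58). Each of the 3 was higher than in any other line, with differences of 1.38, 1.36 and 0.91. The whole list of 36 sulfur amino acid genes, these permeases included, had a median of 0.13, the third highest of the lines, with 23 members above 0 and 13 below. In it 8 genes lay above every other line (6.09% of all features) and 0 below (4.85% of all features), and 4 of the 8 were SAM3, MUP3, MMP1 and MUP1. BAP3, a permease gene for branched-chain amino acids, had a difference of 1.03. The general amino acid permease gene GAP1, chosen after its value was seen, was the lowest of the family at 0.02 and stood at 0.05 in line 19-42, within the other lines (-0.34 to 0.51).

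Vitamin and nucleobase transporter genes had a median difference of 0.62 over 19 genes, and 8 lay above every other line (6.09% of all features). TPN1, the pyridoxine transporter gene, stood at 1.22 in line 19-42, against -0.70 to 0.79 (median -0.08) in the other lines. VHT1, the biotin transporter gene, stood at 0.74, against -0.80 to 0.22 (median -0.14). Both lay clear of the other lines. The purine and cytosine permease gene FCY2 had a difference of 0.98 but stayed within their range. THI7 has near relatives, chosen here after their values were seen: NRT1 had a difference of 0.62 and THI72 of -0.02. The thiamine list as a whole, 24 genes, had a median of 0.08 and was twelfth among the lines, and its synthesis gene THI80, for thiamine pyrophosphokinase, lay at -0.78. All 4 peptide and urea transporter genes were positive: OPT1, a glutathione and oligopeptide transporter gene (1.10), the urea transporter gene DUR3 (0.98), OPT2 (0.93) and the di- and tripeptide transporter gene PTR2 (0.66). The first 3 lay above every other line.

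The hexose transporter list, which includes glucose sensors and their regulators, had a median of 0.31 over 25 genes, and here line 19-42 was only the fifth line. HXT2 (difference 0.85), HXT3 (0.84), HXT11 (0.78) and HXT17 (0.75) led it, and each stayed within the range of the other lines. Hexose transporter genes are near-identical in places, and signal that such copies share on a spotted oligo cannot be told apart. The vacuolar family, 17 genes, had a median of 0.53 with 8 genes above every other line (6.09% of all features). After VBA4 and ATG22 came AVT6 (0.83) and AVT1 (0.73), genes for vacuolar amino acid transport, both above every other line.

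ABC transporter genes had a median difference of 0.50 over 20 genes, with 19 above 0 (50.3% of all features) and 8 above every other line (6.09% of all features). SNQ2, a multidrug efflux pump gene, stood at 0.86 in line 19-42, against -0.87 to 0.71 (median -0.11) in the other lines. PDR12, which encodes the pump for weak organic acids, stood at 1.45 and within the other lines, which reached 1.57. NFT1 (0.79) and the mitochondrial MDL2 (0.74) lay above every other line. Multidrug facilitator genes had a median of 0.39 over 14 genes, led by FLR1 (1.11), HOL1 (1.10) and ATR1 (0.90), which each lay above every other line. QDR1, chosen after its value was seen, lay at -0.22.

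P-type ATPase genes, which encode ion and lipid pumps, had a median of 0.54 over 16 genes. The sodium pump genes ENA1 and ENA2 had the largest differences, 1.36 and 1.23, but their other lines spread widely, from -2.73 to 1.10 and from -3.15 to 1.06, and line 19-42 stood within both ranges at 0.38 and 0.16. YPK9 (0.93), a vacuolar ATPase gene, and PMA2 (0.83), the minor proton pump gene of the plasma membrane, lay above every other line. The major proton pump gene PMA1, chosen after its value was seen, had a difference of 0.55 and stayed within the other lines.

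The vacuolar proton pump, a different machine, has a membrane sector that carries protons and a soluble sector that splits ATP. The 6 measured genes of the membrane sector had a median difference of 0.58, the highest of the 23 lines. The 8 genes of the soluble sector had a median of 0.17, the fifth highest. Both sector lists were put together after values were seen. VPH1 and STV1, which encode the alternative large subunits of the membrane sector, had differences of 1.14 and 0.64, and the proteolipid gene VMA3 had 0.66. All 3 lay above every other line. VMA11, another proteolipid gene, went the other way at -0.60. In the soluble sector VMA7 had a difference of 0.56, and VMA8 one of -0.97, with a value of -1.10 in line 19-42, below the lowest other line (-1.07).

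**Figure D3:**
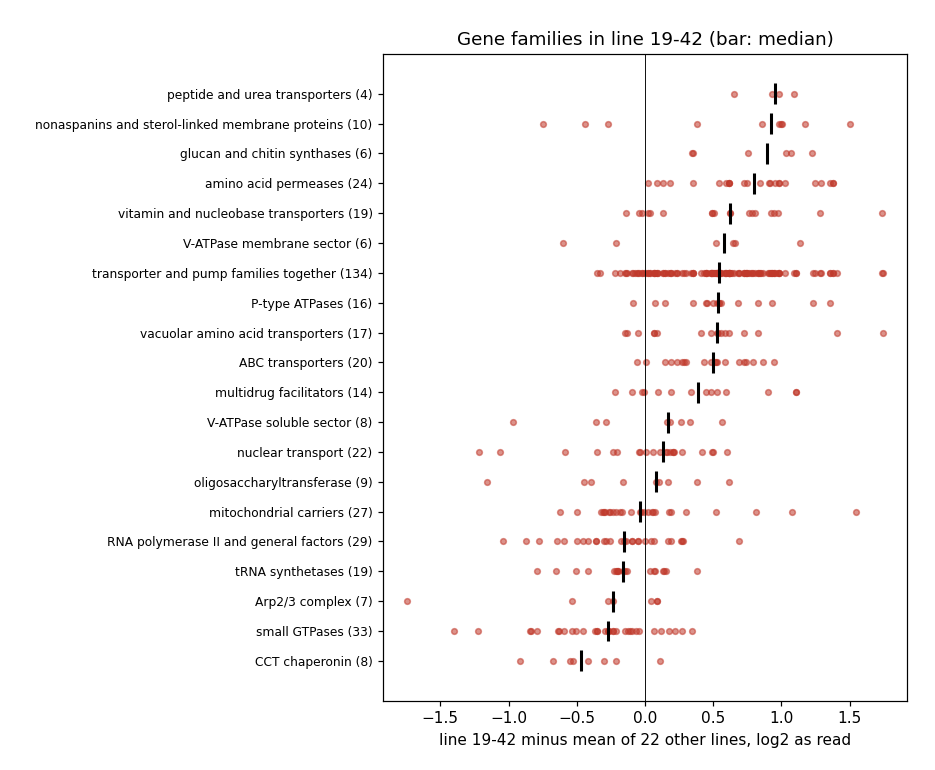
Difference of line 19-42 from the mean of the 22 other lines (horizontal axis, log2 as read) for each measured gene (points) of the families put together after values were seen, with the family median as a black bar and the number of genes in parentheses. The transporter families shown have medians between 0.39 and 0.96, mitochondrial carriers lie around 0 and the CCT chaperonin is lowest at -0.47.

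Other genes of membrane and wall proteins lay on the same side. PNS1, a gene of the choline transporter-like family, stood at 1.18 in line 19-42, against -1.92 to 0.99 (median -0.02) in the other lines. With RSB1 (1.18), a gene for the release of sphingoid bases, IZH3 (1.00) and the nonaspanin gene TMN2 (1.00), it belonged to a mixed group of 10 membrane proteins with a median of 0.92, of which IZH1, IZH2 and IZH4 were negative. The 6 glucan and chitin synthase genes were all positive with a median of 0.89. This group and the mixed group were put together after values were seen, so their medians are descriptions only. In the mixed group 4 of the 10 genes were themselves positive departures (0.537% of all features). The group was put together with these departures known, so the count is no independent tally. FKS1, the main catalytic subunit of glucan synthase, stood at 0.75 in line 19-42, against -1.72 to 0.44 (median -0.44) in the other lines. GSC2 (1.07), its stress-linked relative, and CHS1 (1.03), a chitin synthase gene, stayed within the other lines, while FKS3 (0.75) did not.

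Membrane lipid genes gave a similar picture for phosphatidylcholine. CHO2, whose enzyme starts the methylation of phosphatidylethanolamine to phosphatidylcholine, stood at 1.09 in line 19-42, against -1.02 to 0.17 (median -0.57) in the other lines, a difference of 1.61. CPT1, the choline phosphotransferase gene of the alternative route, stood at 1.07, against -1.04 to 0.26 (median -0.32), a difference of 1.39. HNM1, the choline transporter gene, stood at 1.18, against -0.82 to 0.66 (median -0.05), a difference of 1.25. These 3 genes supply phosphatidylcholine by both routes, and line 19-42 was above every other line for each. ITR2, an inositol transporter gene, followed at 0.78. The whole inositol and phospholipid list had a median of 0.25 over 20 genes, with 17 above 0 (50.3% of all features), and was the highest of the 23 lines, although second highest with signs turned. The gene of the methyltransferase that completes the pathway, OPI3, was at 0.25 and within the other lines, as was the inositol synthase gene INO1 (0.63).

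Fatty acid genes were split. ELO1, a fatty acid elongase gene, stood at 0.82 in line 19-42, against -1.39 to 0.40 (median -0.44) in the other lines, a difference of 1.34. ACB1, the acyl-CoA-binding protein gene, stood at -1.24, against -0.74 to 1.63 (median -0.02), a difference of -1.20. Both lay outside the other lines, on opposite sides. The desaturase gene OLE1 (-1.17) and the acyl-CoA synthetase gene FAA4 (-0.96) were negative too but within the range of the other lines, and the list of 17 had a median of 0.05. Ergosterol genes had a median of -0.14 over 31 genes, the eighteenth of the 23 lines, and that median was 0.0036 with the leading component removed. ERG28 (-0.89) and IDI1 (-0.79) lay below every other line, while ERG4 (0.85), the gene of the last enzyme of the pathway, and ERG20 (-0.70), the farnesyl pyrophosphate synthase gene, stayed within range. HMG2 (0.57) and ARE1 (0.47), chosen after their values were seen, lay above every other line.

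Not all membrane carriers lay on the positive side. The 27 mitochondrial carrier genes, put together after values were seen, had a median difference of -0.03, fourteenth among the lines. In this family 16 lay below 0 (49.7% of all features) and 11 above. Above every other line lay 2 genes (6.09% of all features), and both were positive departures (0.537% of all features). PET9, the major ADP/ATP carrier gene, stood at 1.05 in line 19-42, against -2.45 to 0.96 (median -0.49) in the other lines. Its relative AAC1 stood at 0.85, against -1.52 to 0.72 (median -0.20). CRC1, with a difference of 0.82, stayed within range. ORT1, the ornithine carrier gene, lay at -0.62. ATP1, the alpha subunit gene of the mitochondrial ATP synthase, was also above every other line with a difference of 1.13, while the ATP synthase gene ATP17 (-0.84) and the respiratory complex gene QCR10 (-0.92) were negative and within range. The list of 43 respiratory chain and ATP synthase genes had a median of 0.05.

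Of 47 lists of pathways and processes, chosen with earlier results of these data known, line 19-42 had the highest median of the 23 lines in 6 and the lowest in 1. Other lines were highest in 0 to 7 of the lists. The 6 were cation transporters (0.47), drug resistance (0.46), biotin (0.42), PAU (0.32), the iron regulon (0.29) and inositol and phospholipid genes (0.25). The first 2 share genes with the families above, and the biotin list shares VHT1 with them. In the biotin list, VHT1 (0.95), the biotin-protein ligase gene BPL1 (0.64) and the biotin synthesis genes BIO3 (0.45) and BIO4 (0.40) lay above every other line. PAU genes encode cell wall mannoproteins induced when oxygen or temperature is low, and 28 of 30 lay above 0 (50.3% of all features), led by TIR1 (0.97), PAU20 (0.65), PAU4 (0.62) and PAU1 (0.57). PAU genes are near-identical copies, so their shared signal cannot be told apart, and the list was second highest with signs turned or with the leading component removed. Iron genes had 24 of 32 above 0 (50.3% of all features) and 8 above every other line (6.09% of all features). Among the 8 were SMF3 (0.88), a vacuolar metal transporter gene, the iron reductase gene FRE2 (0.77) and the cell wall mannoprotein gene FIT1 (0.77). The siderophore transporter gene ENB1 (0.89) led that list within the range of the other lines.

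**Figure D4:**
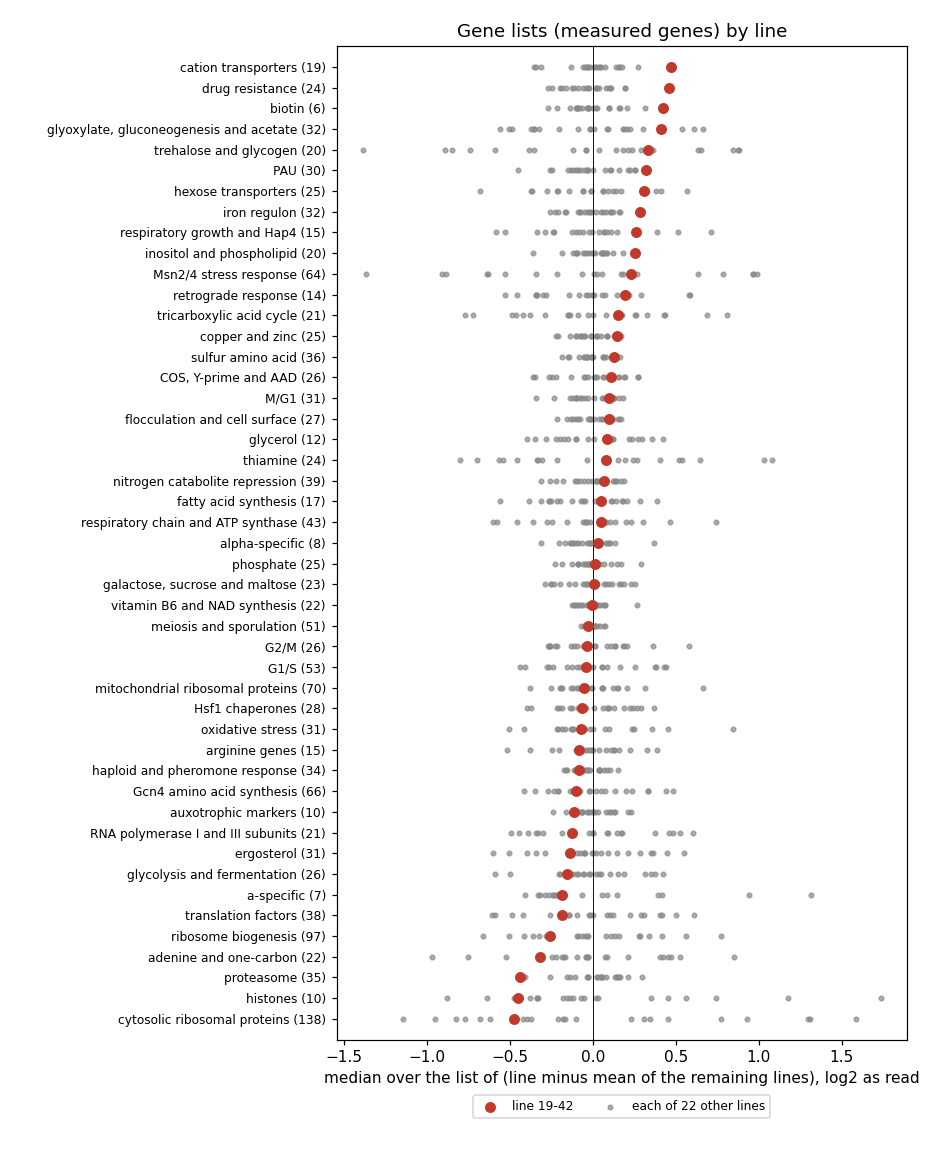
Median over each of the 47 gene lists (rows, with the number of measured genes) of a line's value minus the mean of the remaining lines (horizontal axis, log2 as read), with line 19-42 in red and each of the 22 other lines in grey. Line 19-42 lies to the right of all grey points for 6 lists, such as cation transporters at 0.47, and to the left of all for the proteasome at -0.44.

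The list on which line 19-42 was lowest was the proteasome. Its 35 genes had a median difference of -0.44, with 31 below 0 (49.7% of all features) and 11 below every other line (4.85% of all features), and the medians of the other lines ran from -0.41 in line 19-10 to 0.30 in line 19-21. The margin over line 19-10 was narrow, and with signs turned line 19-42 was second lowest. RPN11, which encodes the deubiquitinating enzyme of the regulatory lid, stood at -1.07 in line 19-42, against -0.51 to 0.78 (median 0.13) in the other lines, a difference of -1.20. RPN13, a ubiquitin receptor gene, stood at -0.93, against -0.52 to 1.19 (median 0.13), a difference of -1.12. RPN8, the lid partner of RPN11, had a difference of -0.90 and the ATPase gene RPT5 one of -0.83. All 4 lay below every other line. The 4 members above 0, named after their values were seen, were RPN1 (0.58), RPN2 (0.22), UMP1 (0.21) and RPT3 (0.08), all within the other lines. RPN1 and RPN2 encode the large scaffold subunits of the cap. RPN4 stood close to the other lines, with a difference of -0.11. NAS6, a proteasome assembly factor gene outside the list, was among the 20 negative departures at -1.02.

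The most negative gene of line 19-42 was ARC19, a subunit gene of the Arp2/3 complex, which nucleates branched actin. It stood at -1.74 in line 19-42, against -0.71 to 1.08 (median -0.10) in the other lines, a difference of -1.74. The other 6 Arp2/3 genes did not stand so far off: ARP2 lay at -0.53 and below every other line, ARC18 and ARC40 lay at -0.27 and -0.23, and the median of the 7 was that of ARC40. ARF1, the small GTPase gene for vesicle budding at the Golgi, stood at -1.47 in line 19-42, against -0.93 to 1.39 (median -0.21), a difference of -1.40. ARF2, its near-identical copy, stood at -1.20, against -0.50 to 0.55 (median -0.03), a difference of -1.22. Both were below every other line, although signal shared between these copies cannot be told apart. SAR1 (-0.84), the GTPase gene for vesicles leaving the endoplasmic reticulum, and ARL1 (-0.83) were below every other line as well. The 33 small GTPase genes, put together after values were seen, had a median of -0.27, with 27 below 0 (49.7% of all features) and 8 below every other line (4.85% of all features). Line 19-7 came to -0.27 too, so line 19-42 was lowest by a margin under the rounding, and it was not lowest after quantile normalization or with signs turned.

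Further negative departures came from nuclear transport and transcription. NTF2, which brings the GTPase Ran into the nucleus, stood at -1.46 in line 19-42, against -1.02 to 1.39 (median -0.34) in the other lines, a difference of -1.22. YRB1, a Ran-binding protein gene, lay at -1.14 and so just below the lowest other line (-1.13). The 22 nuclear transport genes had a median of 0.13, and 14 of them lay above 0 (50.3% of all features). In the CCT chaperonin, which folds actin and tubulin and had no departing gene, 7 of 8 genes lay below 0 (49.7% of all features) with a median of -0.47 (-0.28 with the leading component removed), led by CCT5 (-0.92) and CCT8 (-0.68). Other lines reached -0.59, and 4 lines were lower than line 19-42. TOA2, the small subunit gene of the general factor TFIIA, had a difference of -1.04, and the RNA polymerase subunit genes RPO26 (-0.87) and RPB5 (-0.78) were below every other line too. The gene of the largest subunit of RNA polymerase II, RPO21, went the other way at 0.69 and above every other line. The 29 genes of this group had a median of -0.16, lowest of the 23 lines by a narrow margin over line 19-50 (-0.13). The rank of this group under other settings is not given here. This group, the nuclear transport genes and the CCT chaperonin genes were put together after values were seen.

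OST2 and CYB5 are membrane protein genes on the negative side. OST2, a small subunit gene of oligosaccharyltransferase, stood at -1.07 in line 19-42, against -0.43 to 0.67 (median 0.11) in the other lines. CYB5, the cytochrome b5 gene, stood at -1.11, against -0.71 to 1.41 (median 0.09), a difference of -1.27. Both stood clear of the other lines. Within oligosaccharyltransferase the catalytic subunit gene STT3 had a difference of 0.61 and the small subunit gene OST5 one of -0.39, and the median of 9 genes was 0.08. TVP18, a Golgi membrane protein gene, lay at -1.06. YKL033W-A (-1.25) and YCR043C (-1.05) carry no gene name in the annotation.

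Large lists of growth genes were negative in line 19-42 but stood well within the other lines. Cytosolic ribosomal protein genes had a median of -0.48 over 138 genes, with 116 below 0 (49.7% of all features), yet the other lines ran from -1.14 in line 19-44 to 1.59 in line 19-10, and line 19-42 was seventeenth. With the leading component removed this median was -0.07. RPL9B, the exception among them, was the sole member below every other line, at -0.82 in line 19-42, against -0.45 to 1.53 (median 0.24) in the other lines, a difference of -1.20. Its near-identical copy RPL9A, chosen after its value was seen, lay at -0.86 and within range. RPS12 (-1.36), RPS1A (-1.24) and RPS6A (-1.22) differed by as much and stayed within range. Ribosome biogenesis genes had a median of -0.26 over 97 genes (-0.07 with that component removed), with RLP7 (-1.14), a factor of the large subunit, below every other line. All 10 histone genes were negative with a median of -0.45, nineteenth among the lines, and HTA1, for histone H2A, lay below every other line at -1.03. With the leading component removed the histone median was -0.19. SUI3, for the beta subunit of initiation factor eIF2, was the one translation factor gene to depart, at -1.01.

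Several carbon metabolism lists lay on the positive side within the other lines. Glyoxylate, gluconeogenesis and acetate genes had a median of 0.41 over 32 genes, the fourth highest of the lines, and 0.16 with the leading component removed. The carnitine acetyltransferase gene YAT2 (1.05) and the phosphoenolpyruvate carboxykinase gene PCK1 (0.94) were above every other line, and the lactate permease gene JEN1 (1.24) was not. Trehalose and glycogen genes had a median of 0.33, with the glycogen phosphorylase gene GPH1 at 0.97, and this median was 0.11 with the leading component removed. Stress genes controlled by Msn2 and Msn4 had a median of 0.23 over 64 genes, which turned to -0.09 with the leading component removed. Glycolysis and fermentation genes had a median of -0.15 (-0.04 with it removed), with 15 below 0 (49.7% of all features) and 11 above. GPM1 (-0.88), TPI1 (-0.87) and FBA1 (-0.69), all glycolytic enzymes, were negative within the other lines, and PYK2 (0.80) was positive within them. Among the amino acid synthesis genes under Gcn4, GLN1 (-1.08), the glutamine synthetase gene, and LYS9 (-0.99), of lysine synthesis, were negative and within range, and the list of 66 had a median of -0.10.

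Other lists had medians nearer to those of the remaining lines, with single genes outside their range. Copper and zinc genes had a median of 0.15 over 25 genes, the second highest of the lines, and the metallothionein copies CUP1-2 (0.89) and CUP1-1 (0.88), whose signals cannot be told apart, led the list within the range of the other lines. Adenine and one-carbon genes had a median of -0.32 over 22 genes, with 19 below 0 (49.7% of all features), and a median of -0.07 with the leading component removed. In that list the glycine decarboxylase gene GCV1 (-0.84) lay below every other line, and the adenylosuccinate lyase gene ADE13 (-0.86) did not. Its most positive gene was FCY2 (0.98), within range. Phosphate genes had a median of 0.01, yet VTC1 (-0.93), a subunit gene of the vacuolar polyphosphate polymerase, lay below every other line, and the acid phosphatase gene PHO12 (-1.35) had a large difference within a wide spread (-1.64 to 1.40). PHO91 (0.70) lay above every other line, and PHO84 (0.65) was positive within range. Of the cell wall mannoprotein genes, CWP1 (-0.83) lay below every other line and CWP2 (-1.05) within range, while their list of 27 had a median of 0.10. TIR1 (0.97) and SED1 (0.49) of that list were positive and within range. Among chaperone genes under Hsf1, MGE1 (-0.98), a mitochondrial cochaperone gene, lay below every other line and HSP82 (-0.71), an Hsp90 gene, within range. HSP42 (0.71) was positive within range, and the list median was -0.07. Mitochondrial ribosomal protein genes had a median of -0.06 over 70 genes, and 5 of the 70 lay below every other line, where 4.85% of all features did, MRPL22 (-0.85), MRPS18 (-0.82) and MRPL10 (-0.81) among them. The S-phase cyclin gene CLB5 (-0.996) and the flap endonuclease gene RAD27 (-0.72) lay below every other line in a G1/S list with a median of -0.04. In the same list ELO1 (1.34) and ASF2 (0.60) lay above every other line. Of its 53 genes, 3 lay above every other line (6.09% of all features) and 3 below (4.85% of all features).

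Gene length moved with these differences. Departing genes on the positive side had a median length of 1711.5 bases and those on the negative side 531 bases, against 1239 bases over all 5817 paired features. Across paired features the Spearman correlation of the difference with gene length was 0.21, the fourth highest among the lines, which ran from -0.37 in line 19-8 to 0.32 in line 19-7. Genes are not independent and share the array, so this is a description. The 134 transporter genes had a median length of 1803 bases, and their differences were also read beside other genes of like length. Between 1467 and 2121 bases, 80 transporter genes had a median difference of 0.59 and 1081 other genes one of 0.06, and 60% of those transporter genes and 9.44% of the other genes reached 0.5. From 2124 bases upward, 44 transporter genes had a median of 0.53 and 1119 other genes one of 0.07. Only 4 transporter genes had 662 to 1030 bases, with a median of -0.09, and other genes of that length had -0.09 too. Centring every column within 5 groups of gene length left the transporter median at 0.47 and the proteasome median at -0.39, with line 19-42 still highest and lowest of the lines. The part of gene length in the transporter result was not tested beyond these values.

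**Figure D5:**
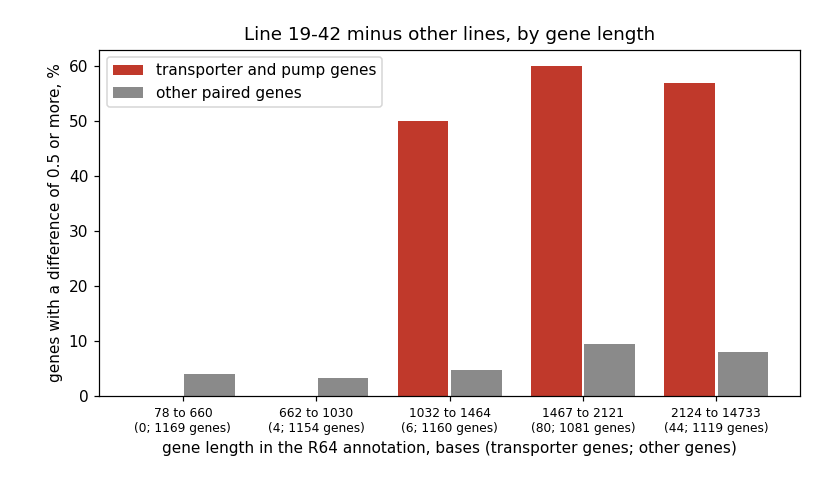
Share of genes (vertical axis, %) whose difference in line 19-42 was 0.5 or more, in 5 groups of equal size by gene length in the R64 annotation, for transporter and pump genes (red) and all other paired genes (grey). In the 2 longest groups 60% and 56.8% of transporter genes reach 0.5, against 9.44% and 7.95% of other genes, and the shortest group holds no transporter gene.

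The mating-type genes gave no sign of a strong departure. Among the genes expressed in a cells, STE2, the alpha-factor receptor gene, stood at 0.01 in line 19-42, against -0.50 to 4.55 (median 0.48) in the other lines. The a-factor genes MFA1 and MFA2 stood at 0.02 and -0.12, and STE6, BAR1 and ASG7, for the a-factor exporter, the alpha-factor protease and a signalling inhibitor, at 0.23, 0.29 and 0.19, all within the other lines. The agglutinin gene AGA2, at -0.31, was below the lowest other line (-0.21). Among alpha-specific genes, STE3 (difference 0.07), SAG1 (0.41), MF(ALPHA)1 (-0.41), AFB1 (-0.11), MATALPHA1 (-0.05), MATALPHA2 (0.05), HMLALPHA1 (0.02) and HMLALPHA2 (0.14) were all within range. The differences of STE2 (-0.82) and MFA2 (-0.71) were set against other lines that reached 4.55 and 3.53. The mating type of the line is not given in the labels.

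Of the nutritional marker genes, which are often deleted in laboratory strains, none stood more than 1 from the other lines. CAN1, the arginine permease gene, was above every other line (0.62) and URA4, of pyrimidine synthesis, below (-0.45). URA1 (-0.67), ADE2 (-0.47), TRP1 (-0.42), MET17 (0.39), URA3 (-0.18), LYS2 (0.13), HIS3 (-0.05) and LEU2 (0.00) were within range.

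The median difference over all features of a chromosome in line 19-42 lay between -0.04 on chromosome XVI and 0.07 on chromosome I over the 16 chromosomes, and by its largest absolute value the line was fifteenth of 23. The largest such value of any line was 0.31, on chromosome IX in line 19-49. On chromosome V, line 19-42 was the highest line, at 0.052, and this median was 0.023 with the leading component removed. Over windows of 15 neighbouring genes the most extreme median was -0.46, around GLD1 on chromosome XVI, the thirteenth most extreme among the lines. That window held the proteasome genes PRE2 (-0.77) and RPN7 (-0.71), RPC40 (-0.84) of RNA polymerases I and III, the ribosomal RNA processing gene MRD1 (-0.59), GLD1 itself (-0.61) and MRI1 (-0.53), of methionine salvage. GLD1 and RPN7 lay below every other line.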

How the data were processed

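The authors normalized the log ratios of 2-channel spotted-oligo arrays and deposited them as 1 table, read as log2, with 6334 features and no missing value in 23 columns. For background correction, normalization method, spot averaging, numerator and genome build, the sources used here give nothing. Per the labels, cDNA from 15 μg of total RNA was labelled. Column medians lay between -0.018 and 0.018, and the number of arrays limits the precision. Features were paired with R64 gene names by systematic name (5623 as written, 194 once a missing hyphen was put back) and 517 were left unpaired.

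The difference was the value of line 19-42 minus the mean of the 22 other columns. Departures needed a difference of 1 or more and a value outside the range of those columns. The contrast was used to choose the line, so no test was made. The members and lists were chosen with earlier results of these data known, and 19 families were added after values were seen. Lists needed 4 measured genes. Named were the 15 most positive and 15 most negative departing genes, up to 4 members of each described list with the largest absolute difference, all measured mating-type and marker genes, and window members past 0.5. Genes named otherwise were chosen after their values were seen. Alternatives changed scaling, centre, lines, the leading component, features, thresholds, signs and length. Python 3.11.15, numpy 2.4.6, pandas 2.3.3, scipy 1.17.1 and matplotlib 3.10.9 were used, and the steps were tested on simulated data.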

Additional observations from a re-analysis of the deposited data

How the results depend on the processing

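Over 9 other settings that rescaled, recentred or left out columns or features, the transporter median of line 19-42 lay between 0.47 and 0.56 and the proteasome median between -0.45 and -0.38, with signs kept. Ranks were computed under 8 of them: line 19-42 was highest for the transporters in each and lowest for the proteasome in each but the one with signs turned. The setting with paired features only could not move these medians or ranks, because the lists held paired genes only. The transporter families had been put together on these same values. The counts of departures moved more. Positive departures numbered 243 with a threshold of 0.5, 18 when 3 SDs of the other lines replaced their range, and 19 with the signs of lines 19-4 and 19-40 turned. Negative departures numbered 195, 7 and 7 under these settings, and 49 after quantile normalization. Elsewhere there were 29 to 50 positive and 14 to 30 negative departures. Lines 19-4 and 19-40 were picked for their negative correlation with line 19-42. The drop with their signs turned therefore cannot show how far the counts rest on the sign. The cause of these changes was not tested. VBA4 and ARC19 reached differences of 2.34 and -2.42 under quantile normalization. The settings with signs turned and with columns centred by gene length were chosen after seeing the data. No paired analysis was possible because line 19-42 has 1 column and the labels give no replicate numbers. Signal over background was not used here, and the error of one ratio is unknown.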
